A study of Mus musculus with 32 samples.

Results

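Whether carbon tetrachloride (CCl4) changed what thyroid hormone did in the wild-type liver was measured as an interaction over 16 of the 32 libraries of the series. The 16 libraries, 1 per mouse, fall into 4 groups of 4: T3 with CCl4 (T3 CCl4 livers below), PBS with CCl4 (PBS CCl4 livers), T3 with oil (T3 oil livers) and PBS with oil (PBS oil livers). The interaction is the log2 difference between T3 and PBS on CCl4, minus the same difference on oil. It is positive where T3 raised a gene more, or lowered it less, in CCl4-injected liver, and negative where the reverse held. All mice of the series ate PTU/LID chow, an iodine-poor diet with propylthiouracil that stops the thyroid from making hormone. The PBS livers were thus hypothyroid, and the T3 livers came from hypothyroid mice given hormone. CCl4 was given at 0.4 µl/g, 2 times a week for 4 weeks, in 9 injections. For the final week, drinking water held T3 at 1 µg/ml, and livers were collected 24 hours after the last injection. The other 16 libraries hold the same 4 combinations in mice labelled as knockouts of Thrb, the gene of thyroid hormone receptor beta. The labels give neither age nor sex, and do not say how the knockout was made.

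Triiodothyronine (T3) is the active thyroid hormone. It binds nuclear receptors that sit on DNA as partners of the retinoid X receptors, recruit co-repressors without hormone and co-activators with it, and in hepatocytes are mostly of the beta type. In the liver T3 is known for inducing the deiodinase Dio1, for driving cholesterol and fatty acid synthesis, bile acid formation and mitochondrial respiration, and for stimulating hepatocyte proliferation in rodents. CCl4 is turned into a radical by cytochrome P450 enzymes of the pericentral hepatocytes. It kills those cells, and repeated doses bring inflammation, regeneration and scar formation.

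The 16 wild-type libraries held 18093658 to 26118055 counts each. Xist, made from an inactive X chromosome, was present in every library of the series and 4 Y-linked genes had 3 counts in all. Hepatocyte genes were high in all of them, with Alb (albumin) at 35904 CPM or more, where CPM is the count scaled to a normalised library size of 1000000. Dio1 (ENSMUSG00000034785, chromosome 4, 107291465 to 107307169) separated the hormone groups. Dio1 measured 844, 1051, 985 and 1137 CPM in T3 CCl4 livers, against 0.681, 0.412, 1.00 and 0.808 CPM in PBS CCl4 livers. On oil, Dio1 measured 1143, 1185, 1084 and 857 CPM in T3 oil livers, against 0.45, 0.658, 0.295 and 0.523 CPM in PBS oil livers. Dio1 lay above every PBS liver in all T3 livers under both injections, and its log2 interaction was -0.71 ± 0.51 SE, adjusted p = 0.32. Dio1 in T3 livers exceeded PBS livers by log2 10.41 ± 0.43 on CCl4 and 11.12 ± 0.45 on oil, and the difference was not called. The PBS CCl4 group was the most spread: its replicates 2 and 4 lay 114 and 91.6 from their group mean in log2 CPM over all tested genes, against 42.8 to 71.1 for all other libraries of the series but knockout PBS CCl4 replicate 3. The kit used for each library is not stated, so kit and group cannot be told apart.

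CCl4 changed the T3 response of a large share of the genes. Of 15599 genes tested, 3722 were called for the interaction at an adjusted p of 0.05 (23.9%), 1684 of them higher (10.8%) and 2038 lower (13.1%), and the median over all tested genes was -0.05. T3 itself was called for 6506 genes on CCl4 (41.7%) and for 5501 on oil (35.3%). These 2 responses share no library. They had 2747 genes in common, 42.2% of the calls on CCl4 and 49.9% of the calls on oil, and 2493 of the 2747 moved the same way. The remaining 254 moved in opposite directions: 121 were higher with T3 on CCl4 and lower with T3 on oil, and 133 were lower on CCl4 and higher on oil. All 254 were also called for the interaction, which 2 called effects of opposite sign make nearly certain. Read the other way, CCl4 against oil was called for 531 genes among T3 livers (3.40%), 260 of them higher on CCl4 (1.67%) and 271 lower (1.74%). Among PBS livers it was called for 7202 genes (46.2%), 3834 higher (24.6%) and 3368 lower (21.6%).

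**Figure D1:**
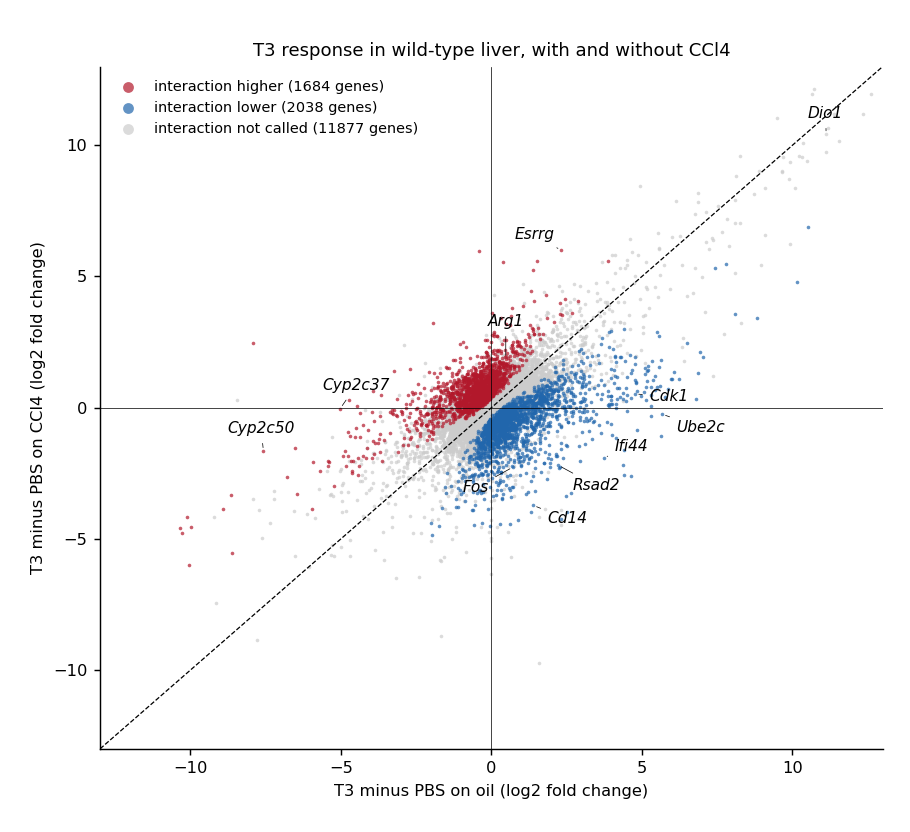
Log2 fold change of T3 minus PBS on CCl4 (vertical axis) against T3 minus PBS on oil (horizontal axis) for each of 15599 tested genes in wild-type liver. The dashed line marks equal responses: the 1684 genes with a higher interaction lie above it, the 2038 with a lower one below it, and Dio1 lies near the line at the upper right.

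The called genes followed a few shapes over the 4 groups. For each gene the group farthest from the mean of the other 3 was found from group means of log2(CPM + 0.25). Among the 1684 genes with a higher interaction, PBS CCl4 livers stood below the other groups in 952 (56.5%) and PBS oil livers stood above them in 624 (37.1%). Among the 2038 with a lower interaction, PBS CCl4 livers stood above the others in 998 (49%), PBS oil livers below them in 776 (38.1%), and T3 oil livers above them in 232 (11.4%). T3 CCl4 livers were the group apart for 41 genes of the first set (above the others) and 32 of the second (below them). The sign of the interaction fixes the side on which the farthest group lies, so these shares compare with both sides together over all genes. Over all 15599 genes, PBS CCl4 livers were the group apart in 23% above and 19.1% below, and PBS oil livers in 17% and 15.2%. T3 oil livers were apart in 8.37% above and 6.99% below, and T3 CCl4 livers in 4.18% above and 6.21% below. The PBS groups were thus apart most often over all genes too. The levels are of whole liver, so a change in the number of cells of a type and a change in RNA per cell cannot be told apart.

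**Figure D2:**
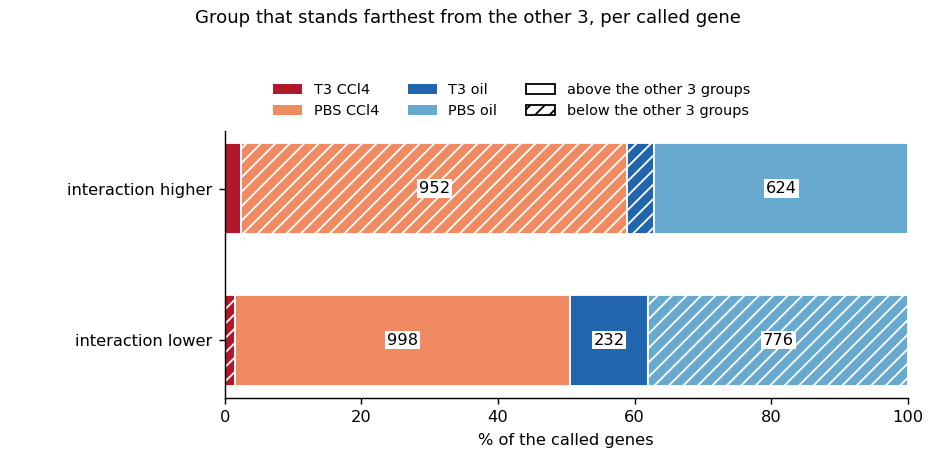
For the genes called higher and lower in the interaction (rows), the percentage in which each wild-type group lies farthest from the mean of the other 3, plain where it lies above them and hatched where it lies below. PBS CCl4 and PBS oil livers account for most genes of both rows, as they do over all tested genes, and T3 CCl4 livers for 41 and 32 genes.

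The balance of higher and lower calls depends on the scaling. PBS CCl4 livers had normalisation factors of 1.14 to 1.29, against 0.85 to 1.09 in the other 3 groups, and scaling by library totals alone lowers the interaction. With it the median over all genes was -0.53 and 6004 genes were called, 620 higher and 5384 lower. The counts below are therefore relative to a gene of median response. Of 170 genes selected for naming, 24 lost the call under that scaling, and only some of them are named below. Counts of list members compare with the shares of all genes: 10.8% higher and 13.1% lower in the interaction. For T3 the shares were 20.0% higher and 21.7% lower on CCl4, and 19.0% and 16.2% on oil. In the wild-type results below, a log2 value in brackets with an adjusted p is the interaction ± SE.

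Interferon-stimulated genes gave the smallest adjusted p of the interaction. These are the antiviral genes that cells switch on when interferon binds its receptor. T3 raised all 18 listed members on oil, where 19.0% of all genes were higher, with a median log2 fold change of 2.59. On CCl4 5 members were higher and 5 lower, where 20.0% and 21.7% of all genes were, and the median was -0.46. The interaction was called lower for 16 of the 18 and higher for none, with a median of -3.08. The same list had 16 called without the 3 libraries that lie farthest from their groups, chosen after the data were seen, and 17 with library totals alone.

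The 4 genes with the smallest adjusted p of all were Rsad2, Xaf1, Oasl2 and Ifit3, and their promoters are shown because a known control element of this class can be looked for in them. The windows run from 250 bases before to 50 bases after the RefSeq start site on GRCm38.p6, 5′ to 3′ on the gene's strand: Rsad2 at chr12:26456403-26456702 (- strand), Xaf1 at chr11:72301379-72301678 (+ strand), Oasl2 at chr5:114896684-114896983 (+ strand) and Ifit3 at chr19:34583279-34583578 (+ strand). Capitals mark matches, on either strand, to the interferon-stimulated response element core GAAANNGAAA.
Rsad2: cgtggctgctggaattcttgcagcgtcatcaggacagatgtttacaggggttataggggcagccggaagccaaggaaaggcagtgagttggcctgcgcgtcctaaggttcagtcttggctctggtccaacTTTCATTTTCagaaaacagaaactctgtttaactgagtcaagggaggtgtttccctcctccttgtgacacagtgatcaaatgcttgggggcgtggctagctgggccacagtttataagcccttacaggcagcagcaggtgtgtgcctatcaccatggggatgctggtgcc
Xaf1: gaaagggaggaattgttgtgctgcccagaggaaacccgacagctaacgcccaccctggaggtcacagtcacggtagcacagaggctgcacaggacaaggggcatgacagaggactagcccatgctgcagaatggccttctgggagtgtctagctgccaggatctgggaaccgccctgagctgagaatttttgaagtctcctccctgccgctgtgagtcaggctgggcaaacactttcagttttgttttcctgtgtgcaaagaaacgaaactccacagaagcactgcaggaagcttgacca
Oasl2: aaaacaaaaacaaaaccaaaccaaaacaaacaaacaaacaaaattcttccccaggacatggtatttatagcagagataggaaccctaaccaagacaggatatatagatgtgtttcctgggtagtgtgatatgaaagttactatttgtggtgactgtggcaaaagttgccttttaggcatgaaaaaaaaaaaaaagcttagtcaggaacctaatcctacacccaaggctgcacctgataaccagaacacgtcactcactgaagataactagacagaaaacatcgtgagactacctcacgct
Ifit3: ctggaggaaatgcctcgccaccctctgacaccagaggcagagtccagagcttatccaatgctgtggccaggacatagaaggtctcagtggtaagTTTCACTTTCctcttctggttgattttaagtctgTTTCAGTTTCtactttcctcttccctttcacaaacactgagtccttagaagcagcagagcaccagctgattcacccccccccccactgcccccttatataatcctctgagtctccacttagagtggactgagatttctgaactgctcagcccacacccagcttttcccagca
Rsad2 had 1 match, starting 120 bases before the start site, and Ifit3 had 2, starting 156 and 122 bases before it. No match was found in the windows of Xaf1 and Oasl2. The core was present in 8 of 17 windows of the interferon-stimulated list (47.1%), against 3.44% of all 32851 windows. A match is a run of letters, and no binding was measured.

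Rsad2 (ENSMUSG00000020641, chromosome 12, 26442746 to 26456452), which encodes the antiviral enzyme viperin, went in opposite directions under the 2 injections. Rsad2 measured 10.7, 13.5, 10.8 and 11.2 CPM in T3 CCl4 livers, against 73.7, 46.4, 71.6 and 19.1 CPM in PBS CCl4 livers. On oil, Rsad2 measured 38.4, 26.3, 36.9 and 43.7 CPM in T3 oil livers, against 9.22, 5.54, 8.63 and 7.79 CPM in PBS oil livers. Rsad2 in T3 livers lay below every PBS liver on CCl4 and above every one on oil, and its log2 interaction was -4.41 ± 0.43 SE, adjusted p = 4.5e-07. Ifit3 (ENSMUSG00000074896, chromosome 19, 34583531 to 34588731) encodes a protein that acts with its relatives against viral RNA. Ifit3 measured 12, 13.2, 11.7 and 14.3 CPM in T3 CCl4 livers, against 16.2, 21.4, 26.4 and 6.67 CPM in PBS CCl4 livers. On oil, Ifit3 measured 52.1, 47, 47.8 and 48 CPM in T3 oil livers, against 8.83, 4.44, 6.9 and 5.12 CPM in PBS oil livers. Ifit3 overlapped between T3 and PBS livers on CCl4, while on oil every T3 liver lay above every PBS liver, and its log2 interaction was -3.41 ± 0.37 SE, adjusted p = 1.85e-06. Isg15 (ENSMUSG00000035692, chromosome 4, 156199424 to 156200818) encodes a ubiquitin-like protein that is attached to other proteins. Isg15 measured 16.6, 18.8, 12.9 and 14.8 CPM in T3 CCl4 livers, against 57.2, 19.4, 57.9 and 10.1 CPM in PBS CCl4 livers. On oil, Isg15 measured 43.8, 40.9, 42.3 and 44.3 CPM in T3 oil livers, against 6.02, 3.68, 3.91 and 3.45 CPM in PBS oil livers. Isg15 overlapped between T3 and PBS livers on CCl4, while on oil every T3 liver lay above every PBS liver, and its log2 interaction was -4.53 ± 0.51 SE, adjusted p = 2.35e-06. PBS CCl4 replicates 1 and 3 and the T3 oil livers held the highest Isg15 values, and every PBS oil value lay below all others.

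Irf7, the transcription factor that amplifies the type I interferon response, averaged 60.6 ± 7.41 CPM in T3 CCl4 livers, 113 ± 64.6 CPM in PBS CCl4 livers, 159 ± 32.7 CPM in T3 oil livers and 16.7 ± 5.25 CPM in PBS oil livers (mean ± SD, n = 4 mice here and below). Its log2 interaction was -4.14 ± 0.49 SE, adjusted p = 4.01e-06. Ifi44 had the largest negative value among the class members named here, -5.65 ± 0.65, adjusted p = 2.8e-06. T3 lowered it on CCl4 (-1.91 ± 0.43) and raised it on oil (3.74 ± 0.48). The interaction was also lower for Xaf1 (-2.92 ± 0.29), Oasl2 (-3.08 ± 0.33), Ifit1 (-3.68 ± 0.40), Ifi27l2a (-2.78 ± 0.32), Oas1a (-3.70 ± 0.44) and Ifit3b (-3.10 ± 0.38). For these genes T3 was called higher on oil and was not called on CCl4. Ifit3 and Ifit3b are near-identical neighbours, and their reads may have been split between them. Among the 12 genes with the smallest adjusted p of a lower interaction, Ciapin1 (ENSMUSG00000031781, chromosome 8, 94819804 to 94838358), of cytosolic iron-sulfur cluster assembly, was the 1 gene outside this class. It rose with T3 on CCl4 (0.57 ± 0.12) and on oil (2.04 ± 0.13), with an interaction of -1.47 ± 0.18, adjusted p = 5.56e-06. In those 12, the response element core was found in 6 of 11 windows.

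Markers of Kupffer cells, the resident macrophages of the liver, rose with T3 under both injections, unlike the interferon-stimulated genes. In the interaction 2 of 12 were called, both lower (median -0.42). Of 12 marker genes, T3 raised 10 on CCl4 and 11 on oil and lowered none. Their summed level was 916 to 1259 CPM in T3 CCl4 livers, 333 to 672 CPM in PBS CCl4 livers, 1097 to 1688 CPM in T3 oil livers and 259 to 393 CPM in PBS oil livers. The lowest level of any of the 12 in any library was 1.16 CPM. The part of these cells in the interferon pattern was not tested.

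Genes of cell division were raised by T3 on oil and much less on CCl4. The mitosis list holds kinases, cyclins and spindle proteins made late in the cell cycle. T3 raised 18 of its 18 members on oil (median log2 fold change 4.78) and 5 on CCl4 (median 0.70). All 18 were called lower in the interaction (median -3.89), and T3 oil livers stood above the other 3 groups in each of the 18. The counts without the 3 farthest libraries and with library totals alone were 16 and 18.

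Cdk1 (ENSMUSG00000019942, chromosome 10, 69335146 to 69352938) encodes the kinase that starts mitosis. Cdk1 measured 3.68, 4.54, 4.56 and 3.49 CPM in T3 CCl4 livers, against 2.6, 1.86, 2.29 and 4.56 CPM in PBS CCl4 livers. On oil, Cdk1 measured 24.9, 24.6, 7.73 and 21.6 CPM in T3 oil livers, against 0.394, 1.21, 0.589 and 0.68 CPM in PBS oil livers. T3 oil livers were the high group, with replicate 3 the lowest of them. Cdk1 overlapped between T3 and PBS livers on CCl4, while on oil every T3 liver lay above every PBS liver, and its log2 interaction was -4.25 ± 0.58 SE, adjusted p = 2.48e-05. Ube2c (ENSMUSG00000001403, chromosome 2, 164769898 to 164778822) encodes the enzyme that hands ubiquitin to the anaphase-promoting complex, and it had one of the 4 largest negative interactions. Ube2c measured 1.77, 1.98, 1.45 and 1.31 CPM in T3 CCl4 livers, against 1.4, 3.09, 0.715 and 2.54 CPM in PBS CCl4 livers. On oil, Ube2c measured 19.8, 21.5, 4.83 and 14.4 CPM in T3 oil livers, against 0.225, 0.329, 0.295 and 0.314 CPM in PBS oil livers. Ube2c overlapped between T3 and PBS livers on CCl4, while on oil every T3 liver lay above every PBS liver, and its log2 interaction was -5.92 ± 0.80 SE, adjusted p = 2.07e-05. Cdc20, an activator of the same complex, had an interaction of -5.37 ± 0.82, adjusted p = 8.28e-05, and Ccnb2, a mitotic cyclin, -4.13 ± 0.57, adjusted p = 2.56e-05.

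Genes of cell cycle entry and DNA replication were more mixed. The interaction was lower for 11 of 18 and higher for 1, with a median of -1.65, and T3 raised 6 of them on CCl4 and 13 on oil. Ccnd1 (ENSMUSG00000070348, chromosome 7, 144929931 to 144939925), the cyclin of the first growth phase, rose with T3 under both injections. Ccnd1 measured 296, 222, 188 and 334 CPM in T3 CCl4 livers, against 129, 21.9, 81.8 and 139 CPM in PBS CCl4 livers. On oil, Ccnd1 measured 435, 218, 197 and 309 CPM in T3 oil livers, against 18.1, 17.1, 12.5 and 26.7 CPM in PBS oil livers. Ccnd1 lay above every PBS liver in all T3 livers under both injections, and its log2 interaction was -2.48 ± 0.50 SE, adjusted p = 0.00112. PBS CCl4 livers averaged 92.7 ± 53.3 CPM and PBS oil livers 18.6 ± 5.95 CPM. Ccna2 (cyclin A, -4.22 ± 0.60, adjusted p = 3.7e-05), Ccne1 (cyclin E, -3.15 ± 0.63, adjusted p = 0.00108) and Mcm7 (a subunit of the replicative helicase, -1.06 ± 0.20, adjusted p = 0.000599) were also lower. Tk1, thymidine kinase, was the member called higher (2.28 ± 0.55, adjusted p = 0.00476), with 19.4 ± 2.84 CPM in T3 CCl4 livers, 4.5 ± 4.11 CPM in PBS CCl4 livers, 25 ± 4.53 CPM in T3 oil livers and 28.1 ± 7.3 CPM in PBS oil livers.

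**Figure D3:**
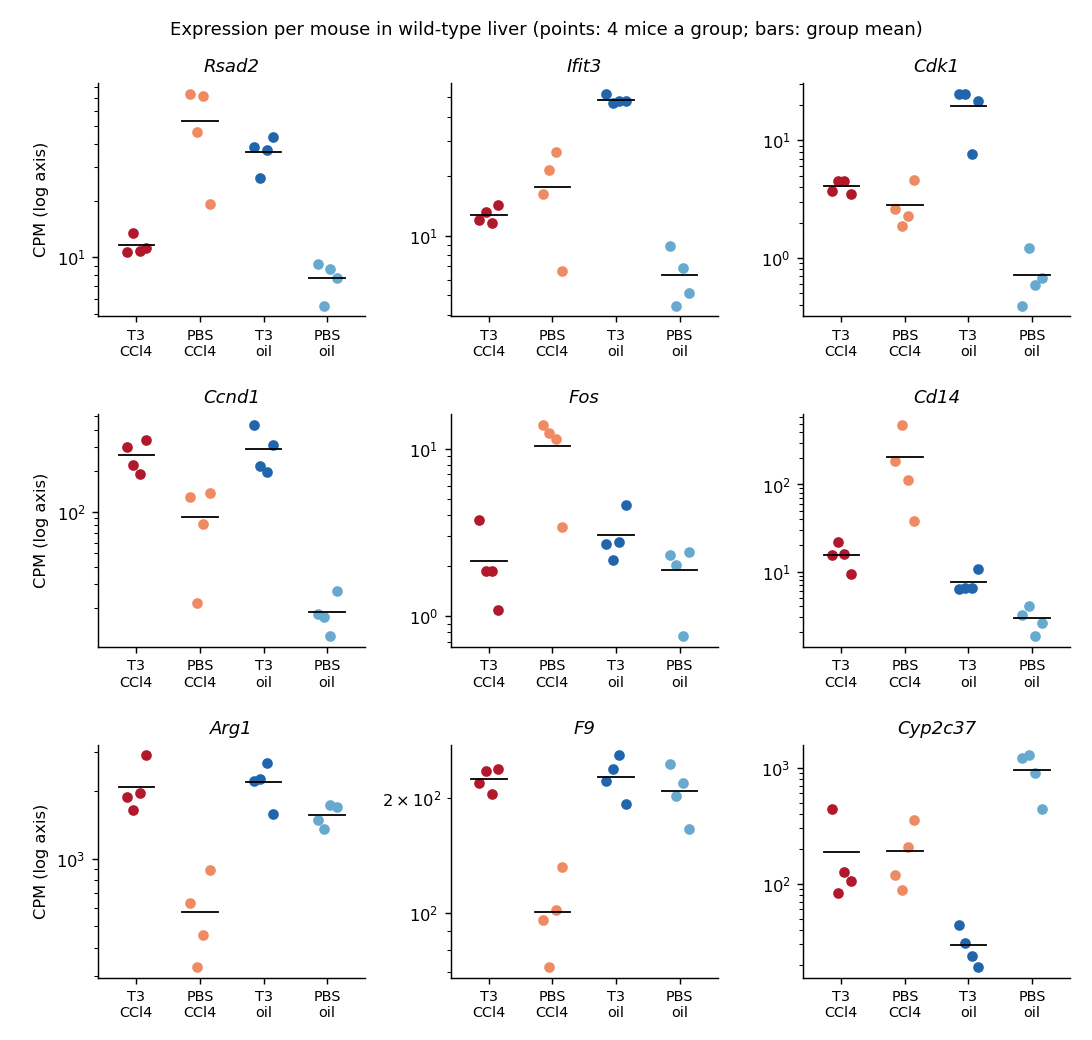
CPM (log axis) of 9 genes in each wild-type mouse, by group; points are mice and bars are group means (n = 4). Rsad2 is high in PBS CCl4 and T3 oil livers, Ifit3 and Cdk1 in T3 oil livers, Fos and Cd14 in PBS CCl4 livers, while Arg1 and F9 are low in PBS CCl4 livers and Cyp2c37 is high in PBS oil livers.

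Genes of acute injury showed another shape, high in PBS CCl4 livers and lower in T3 CCl4 livers. The AP-1 and immediate-early list holds transcription factors switched on within minutes by growth factors and stress. Its interaction was lower for 13 of 15 and higher for none (median -2.92). T3 lowered 12 members on CCl4 (median -2.11) and raised 4 on oil (median 0.66). PBS CCl4 livers stood above the other groups in 10 of the 13 called. The count was 12 without the 3 farthest libraries.

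Fos (ENSMUSG00000021250, chromosome 12, 85473890 to 85477273) encodes an AP-1 subunit. Fos measured 3.73, 1.86, 1.86 and 1.09 CPM in T3 CCl4 livers, against 13.9, 12.5, 11.5 and 3.39 CPM in PBS CCl4 livers. On oil, Fos measured 2.69, 2.16, 2.76 and 4.61 CPM in T3 oil livers, against 2.31, 2.03, 0.758 and 2.41 CPM in PBS oil livers. Fos in T3 and PBS livers overlapped under both injections, and its log2 interaction was -2.98 ± 0.58 SE, adjusted p = 0.000878. PBS CCl4 replicate 4 was within the range of the T3 CCl4 livers, and the other 3 PBS CCl4 livers were the highest of the 16. Myc (ENSMUSG00000022346, chromosome 15, 61985391 to 61990374) encodes a growth-driving transcription factor. Myc measured 14.1, 11.3, 9.15 and 13.7 CPM in T3 CCl4 livers, against 94.9, 88.4, 45.3 and 52.5 CPM in PBS CCl4 livers. On oil, Myc measured 5.57, 6.74, 8.05 and 8.34 CPM in T3 oil livers, against 8.1, 6.42, 3.54 and 18.1 CPM in PBS oil livers. Myc in every T3 liver lay below every PBS liver on CCl4, while the groups overlapped on oil, and its log2 interaction was -2.21 ± 0.49 SE, adjusted p = 0.00236. Maff, a small Maf protein, averaged 4.14 ± 2.18 CPM in T3 CCl4 livers, 43.9 ± 56.2 CPM in PBS CCl4 livers, 4.5 ± 2.08 CPM in T3 oil livers and 2.86 ± 1.06 CPM in PBS oil livers, with an interaction of -4.06 ± 0.85, adjusted p = 0.00164. The AP-1 site TGANTCA, searched on both strands, was in 0 of the 17 promoter windows of this list, which are those of the factors themselves. It was in 7.81% of all windows. Among the 12 genes with the smallest adjusted p it was in 4 of 11 windows for a lower interaction and 2 of 11 for a higher one. The interferon-stimulated, mitosis and T3-responsive lists had it in 4 of 17, 0 of 16 and 2 of 15 windows.

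S100 proteins, annexins and other genes of injured epithelium followed the same shape. The interaction was lower for 12 of 15 (median -1.65), T3 lowered all 15 on CCl4, and on oil it raised 1 and lowered 4. The count was 5 without PBS CCl4 replicate 2 and 7 without T3 oil replicate 2. Lgals3 (ENSMUSG00000050335, chromosome 14, 47367751 to 47386160) encodes galectin-3, a sugar-binding protein of injured epithelium and macrophages. Lgals3 measured 27.2, 72.9, 65.7 and 24.7 CPM in T3 CCl4 livers, against 182, 275, 102 and 56.6 CPM in PBS CCl4 livers. On oil, Lgals3 measured 13.4, 11.6, 9.48 and 24.2 CPM in T3 oil livers, against 5.91, 3.57, 3.87 and 3.97 CPM in PBS oil livers. Lgals3 overlapped between T3 and PBS livers on CCl4, while on oil every T3 liver lay above every PBS liver, and its log2 interaction was -3.46 ± 0.63 SE, adjusted p = 0.000467. S100a6 (-2.42 ± 0.51, adjusted p = 0.00176), S100a11 (-1.61 ± 0.37, adjusted p = 0.00338) and Anxa5 (-1.43 ± 0.34, adjusted p = 0.00382), which encode calcium-binding proteins, fell with T3 on CCl4 and were not called on oil. Sprr1a, of stressed epithelia, had the largest negative value (-6.54 ± 2.25, adjusted p = 0.035). T3 oil and PBS oil livers held 29 and 5 counts of Sprr1a in all, so its size is poorly fixed. It was not called without 1 of 7 libraries: PBS CCl4 replicate 1 or 2, PBS oil replicate 1 or 3, or T3 oil replicate 1, 2 or 3 (edgeR adjusted p = 0.0508 to 0.0807). Sprr1a was not called by limma voom either (adjusted p = 0.102).

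Among p53 targets and cell-cycle inhibitors, 5 of 13 were lower and 1 higher in the interaction, where 13.1% and 10.8% of all genes were. Bax, a promoter of apoptosis (-1.37 ± 0.22, adjusted p = 0.000161), Zmat3 (-1.47 ± 0.26, adjusted p = 0.000372) and Eda2r, a receptor of the TNF family (-3.33 ± 0.62, adjusted p = 0.000622), fell with T3 on CCl4 and rose with T3 on oil. Mdm2, the ubiquitin ligase of p53, rose with T3 on oil and was not called on CCl4 (-0.85 ± 0.20, adjusted p = 0.00429). Cdkn1c, a cell-cycle inhibitor, was the higher member (1.55 ± 0.44, adjusted p = 0.0123), and T3 lowered it on oil. Of 10 fetal and stressed hepatocyte genes 4 were lower, with Ly6d at -3.83 ± 0.80, adjusted p = 0.00164 and Afp (alpha-fetoprotein) at -2.39 ± 0.59, adjusted p = 0.00518, and 2 were called without T3 oil replicate 4.

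Other stress programmes had counts near the background of all genes. The interaction was lower for 2 and higher for 1 of 15 NRF2 antioxidant genes, lower for 3 and higher for 1 of 14 genes of the integrated stress response, and lower for 1 of 15 chaperones of the unfolded protein response. Hmox1, which degrades haem, rose with T3 on oil and was not called on CCl4 (-1.90 ± 0.30, adjusted p = 0.000118). Srxn1, which repairs oxidised peroxiredoxins, fell with T3 on CCl4 and was not called on oil (-2.16 ± 0.45, adjusted p = 0.00167). Gdf15, a stress hormone, did the same (-2.18 ± 0.50, adjusted p = 0.00294). Cth, of cysteine synthesis, fell with T3 on oil, and its interaction was 2.17 ± 0.55, adjusted p = 0.00663. Without PBS CCl4 replicate 4, 8 NRF2 genes and 7 integrated stress response genes were called. The integrated stress response count was 2 without PBS oil replicate 2 or 3, T3 CCl4 replicate 4 or T3 oil replicate 4. Scaling by totals alone called 5 NRF2, 7 integrated stress response and 6 unfolded protein response genes, and 1 of them was higher.

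Markers of recruited myeloid cells were mostly lower in the interaction. Of 17 genes of monocyte-derived macrophages 10 were lower and 1 higher (median -1.46). T3 raised 3 and lowered 6 on CCl4, where 20.0% of all genes were higher and 21.7% lower. It raised 11 and lowered 1 on oil, where 19.0% of all genes were higher and 16.2% lower. The count of called members was 7 without PBS oil replicate 3 and 7 without T3 oil replicate 4. Cd14 (ENSMUSG00000051439, chromosome 18, 36725067 to 36726798) encodes the receptor that presents bacterial lipid to myeloid cells and hepatocytes. Cd14 measured 15.3, 21.8, 15.8 and 9.26 CPM in T3 CCl4 livers, against 184, 487, 113 and 38.1 CPM in PBS CCl4 livers. On oil, Cd14 measured 6.37, 6.49, 6.49 and 10.8 CPM in T3 oil livers, against 3.15, 4.06, 1.81 and 2.56 CPM in PBS oil livers. Cd14 in T3 livers lay below every PBS liver on CCl4 and above every one on oil, and its log2 interaction was -5.11 ± 0.72 SE, adjusted p = 3.75e-05. Cd68, a lysosomal protein of macrophages (-2.65 ± 0.46, adjusted p = 0.000346), rose with T3 on oil and was not called on CCl4. Itgam, an adhesion receptor of myeloid cells (-2.79 ± 0.52, adjusted p = 0.000614), fell with T3 on CCl4 and rose with it on oil.

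Neutrophil markers were low in every group but PBS CCl4. Ly6g, Mpo, Elane and Camp, which define the lineage, had 21, 33, 28 and 64 counts over the 16 libraries and were not tested. Of the 8 tested, 4 were lower in the interaction (median -2.93) and T3 lowered 7 on CCl4. Their summed level was 20 to 26.6 CPM in T3 CCl4 livers, 28.4 to 348 CPM in PBS CCl4 livers, 11.5 to 27.4 CPM in T3 oil livers and 6.65 to 18.3 CPM in PBS oil livers. S100a9 (ENSMUSG00000056071, chromosome 3, 90692632 to 90695721), a calcium-binding protein abundant in neutrophils, showed the pattern. S100a9 measured 5.73, 6.05, 4.31 and 5.67 CPM in T3 CCl4 livers, against 14.4, 147, 24.1 and 10.1 CPM in PBS CCl4 livers. On oil, S100a9 measured 2.27, 2.67, 4.88 and 4.39 CPM in T3 oil livers, against 5.68, 5.27, 2.23 and 5.86 CPM in PBS oil livers. S100a9 in every T3 liver lay below every PBS liver on CCl4, while the groups overlapped on oil, and its log2 interaction was -2.76 ± 0.79 SE, adjusted p = 0.0135. PBS CCl4 replicate 2 was the highest of its group. Without it S100a9 had an adjusted p of 0.118 and 1 member was called, while 7 were called without PBS CCl4 replicate 4 and 2 without T3 oil replicate 4. Of 17 lymphocyte genes 1 was higher and of 12 Kupffer cell genes 2 were lower. Leaving out 1 wild-type library at a time gave 0 or 1 call for the lymphocyte list and 0 to 3 for the Kupffer cell list. The neutrophil and Kupffer cell lists had 8 and 5 called with library totals alone, all lower.

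Acute-phase proteins, which hepatocytes secrete under IL-6 and IL-1, went both ways at shares near those of all genes. In the list 4 of 20 were lower and 2 higher (median -0.38), where 13.1% and 10.8% of all genes were. In it 3 were called without any 1 of 6 libraries: PBS CCl4 replicate 2 or 3, PBS oil replicate 3, T3 CCl4 replicate 1 or 3, or T3 oil replicate 4. Saa3 (ENSMUSG00000040026, chromosome 7, 46711998 to 46715700) encodes a serum amyloid protein of a family whose members may exchange reads. Saa3 measured 17.6, 9.07, 8.23 and 23.6 CPM in T3 CCl4 livers, against 54.5, 29.8, 28.6 and 50.9 CPM in PBS CCl4 livers. On oil, Saa3 measured 3.3, 5.88, 5.8 and 6.5 CPM in T3 oil livers, against 2.08, 6.36, 2.19 and 2.98 CPM in PBS oil livers. Saa3 in every T3 liver lay below every PBS liver on CCl4, while the groups overlapped on oil, and its log2 interaction was -2.15 ± 0.63 SE, adjusted p = 0.0152. Crp, C-reactive protein, was higher (1.20 ± 0.36, adjusted p = 0.0172) and was called for T3 on oil alone. It averaged 324 ± 60.4 CPM in T3 CCl4 livers, 273 ± 97.1 CPM in PBS CCl4 livers, 247 ± 45.3 CPM in T3 oil livers and 479 ± 82.8 CPM in PBS oil livers. It was not called with library totals alone (adjusted p = 0.0787). In the IL-6 and IL-1 list 2 of 17 were lower and 1 higher, near or below the shares of all genes. Il1rap, the accessory chain of the IL-1 receptor, fell with T3 on oil, and its interaction was 1.53 ± 0.29, adjusted p = 0.000739. Cebpb, a transcription factor of the acute phase, rose with T3 under both injections, more on oil (interaction -2.22 ± 0.46, adjusted p = 0.00147). That list had 6 members called without PBS CCl4 replicate 4, and with library totals alone 1 higher and 9 lower (median -0.91, against -0.42). The acute-phase list was then 0 higher and 7 lower.

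Of 21 scar collagens and matrix genes 3 were lower in the interaction, where 13.1% of all genes were, and none was higher (median -0.71). T3 lowered 7 of the 21 on CCl4 and 3 on oil, and raised 3 and 4. The summed level of the 21, in which abundant members weigh most, was higher with T3 under both injections. It was 2840 to 3929 CPM in T3 CCl4 livers and 1806 to 2282 CPM in PBS CCl4 livers. On oil it was 3022 to 3519 CPM in T3 oil livers and 1567 to 2023 CPM in PBS oil livers. None of 10 tested myofibroblast markers was called by edgeR as reported or by DESeq2, with 1 at an unadjusted p below 0.05 and 1 called by limma voom. T3 lowered 5 of the 10 and raised 1 on CCl4, and on oil it lowered 1 and raised none. Their summed level was 302 to 399 CPM in T3 CCl4 livers, 504 to 558 CPM in PBS CCl4 livers, 259 to 337 CPM in T3 oil livers and 371 to 466 CPM in PBS oil livers. Without PBS CCl4 replicate 4, 1 myofibroblast marker was called. Without the 3 farthest libraries 1 was called, higher, and with library totals alone 2 were, both lower. The matrix count was 7 without PBS CCl4 replicate 3, and with library totals alone it was 11, all lower.

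Thbs1 (ENSMUSG00000040152, chromosome 2, 118111876 to 118127133) encodes thrombospondin-1, a matrix protein that can activate latent TGF-β. Thbs1 measured 3.17, 3.08, 2.54 and 3.6 CPM in T3 CCl4 livers, against 16.1, 50.2, 16.1 and 7.92 CPM in PBS CCl4 livers. On oil, Thbs1 measured 1.04, 1.81, 2.16 and 4.52 CPM in T3 oil livers, against 1.57, 2.3, 2.02 and 2.2 CPM in PBS oil livers. Thbs1 in every T3 liver lay below every PBS liver on CCl4, while the groups overlapped on oil, and its log2 interaction was -3.11 ± 0.67 SE, adjusted p = 0.00214. Col12a1, a fibril-associated collagen, rose with T3 under both injections, more on oil (-1.87 ± 0.39, adjusted p = 0.00168). Of 15 metalloproteinases and inhibitors 6 were lower and 1 higher in the interaction, where 13.1% and 10.8% of all genes were. Timp1 (ENSMUSG00000001131, chromosome X, 20870166 to 20874735) encodes an inhibitor of these proteases. Timp1 measured 1.68, 2.38, 1.57 and 1.85 CPM in T3 CCl4 livers, against 22.6, 25, 7.9 and 6.34 CPM in PBS CCl4 livers. On oil, Timp1 measured 0.33, 0.402, 0.138 and 1.01 CPM in T3 oil livers, against 0.0562, 0.439, 0.21 and 0.575 CPM in PBS oil livers. Timp1 in every T3 liver lay below every PBS liver on CCl4, while the groups overlapped on oil, and its log2 interaction was -3.62 ± 0.79 SE, adjusted p = 0.00224. Adam8 (-2.55 ± 0.50, adjusted p = 0.000997) and Mmp12, the macrophage elastase (-3.94 ± 0.80, adjusted p = 0.0013), also fell with T3 on CCl4, and Mmp12 rose with T3 on oil. In the cross-linking list 4 of 15 were lower and 1 higher, among them Loxl2, a lysyl oxidase (-1.50 ± 0.36, adjusted p = 0.00452), and, upwards, Bmp1, which trims procollagen (1.12 ± 0.23, adjusted p = 0.00147). Of 18 TGF-β genes 3 were lower: Ccn1, a matricellular protein (-2.16 ± 0.48, adjusted p = 0.00245), Inhbb, an activin subunit (-2.61 ± 0.58, adjusted p = 0.00252), and Tgfbr2, the type II receptor (-1.16 ± 0.31, adjusted p = 0.00818). The TGF-β count was 5 without PBS CCl4 replicate 4. Markers of quiescent stellate cells (2 of 12 higher), sinusoidal endothelium (2 of 12 higher) and cholangiocytes (1 of 11 lower) had counts near the background of 10.8% higher and 13.1% lower, with 1 to 4, 2 to 4 and 0 to 2 members called as each wild-type library was left out in turn. With library totals alone quiescent stellate markers were 1 higher and 0 lower and endothelial ones 1 higher and 2 lower, and the medians of both lists turned to -0.07 and -0.04, against 0.40 and 0.44 as reported. The same scaling called 11 cross-linking and 11 TGF-β genes.

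**Figure D4:**
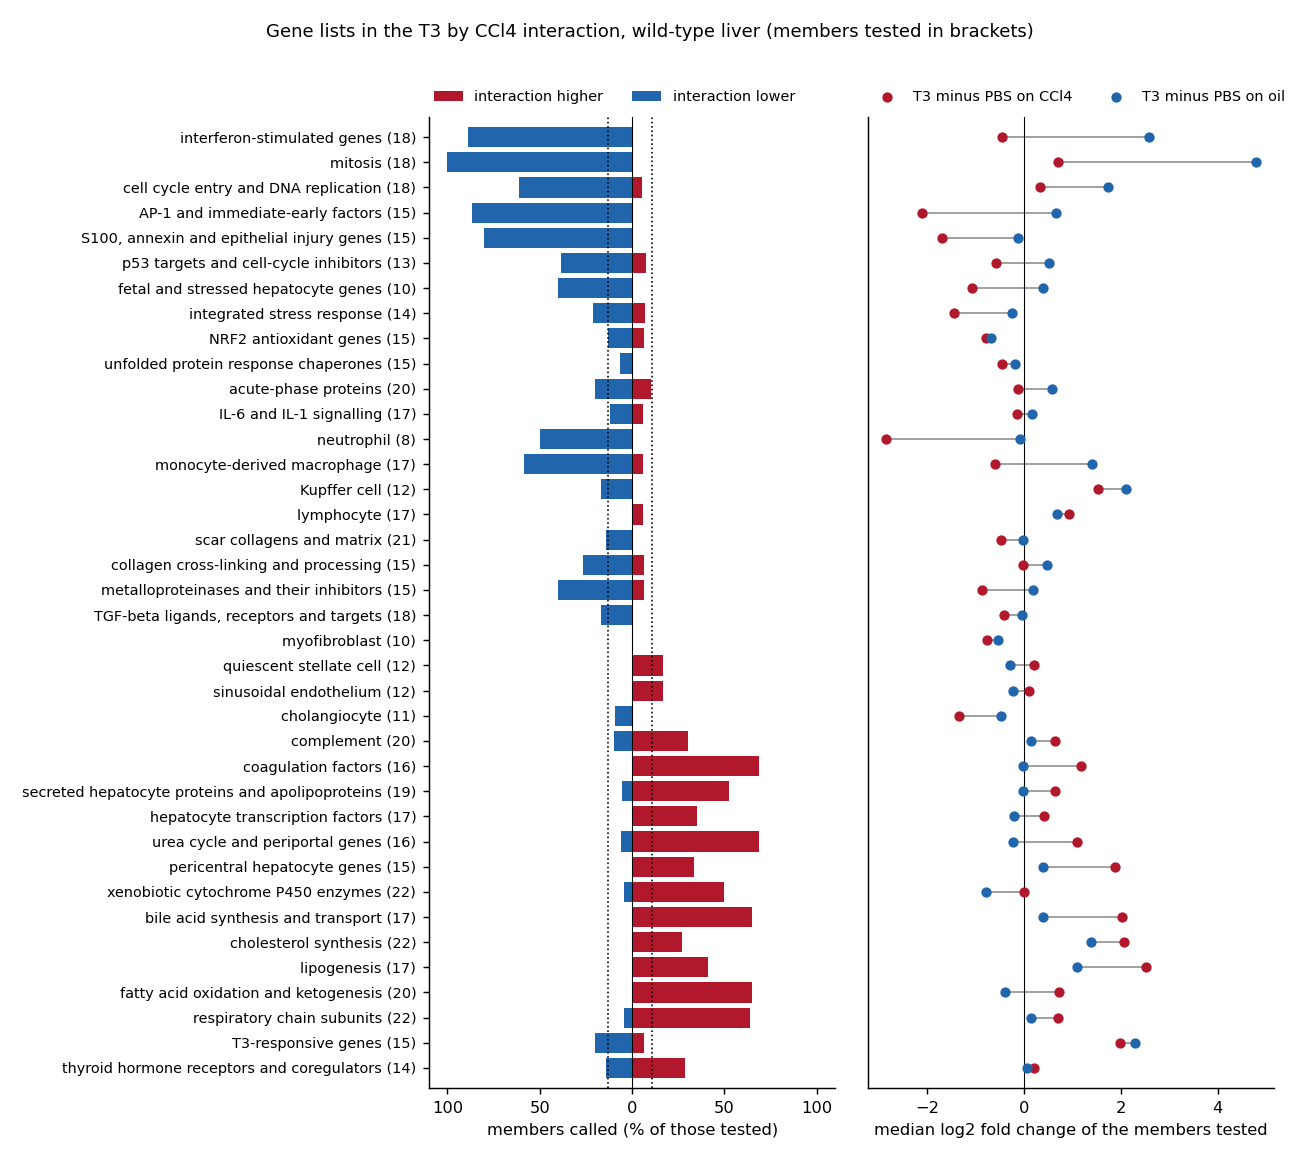
Left, percentage of the tested members of 38 gene lists that were called higher (right of 0) and lower (left of 0) in the interaction, with the share of all genes as dotted lines (10.8% and 13.1%). Right, the median log2 fold change of T3 minus PBS on CCl4 and on oil for the same lists: the mitosis and interferon lists differ most, with oil medians of 4.78 and 2.59.

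In lists of differentiated hepatocyte function, most of the members called in the interaction were higher. The share called varied between the lists and with the scaling. For coagulation factors the interaction was higher in 11 of 16 and lower in none (median 1.13). T3 raised 14 of them on CCl4, and on oil it raised 3 and lowered 1. PBS CCl4 livers stood below the other groups in 10 of the 11 called, and 7 were called with library totals alone. F9 (ENSMUSG00000031138, chromosome X, 59999464 to 60030759), coagulation factor IX, was a clear case. F9 measured 218, 235, 205 and 237 CPM in T3 CCl4 livers, against 95.9, 72.3, 102 and 132 CPM in PBS CCl4 livers. On oil, F9 measured 221, 238, 258 and 192 CPM in T3 oil livers, against 245, 203, 219 and 166 CPM in PBS oil livers. F9 in every T3 liver lay above every PBS liver on CCl4, while the groups overlapped on oil, and its log2 interaction was 1.03 ± 0.23 SE, adjusted p = 0.00306. T3 CCl4, T3 oil and PBS oil livers shared 1 range. F7 (1.51 ± 0.31, adjusted p = 0.00146), F10 (1.39 ± 0.33, adjusted p = 0.00362) and Proc, protein C (1.16 ± 0.29, adjusted p = 0.00524), were higher too.

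Urea cycle and periportal genes were higher in 11 of 16 and lower in 1 (median 1.48). Arg1 (ENSMUSG00000019987, chromosome 10, 24915221 to 24927484) encodes arginase, the last step of the urea cycle. Arg1 measured 1885, 1653, 1955 and 2892 CPM in T3 CCl4 livers, against 633, 329, 455 and 890.3 CPM in PBS CCl4 livers. On oil, Arg1 measured 2231, 2272, 2665 and 1589.8 CPM in T3 oil livers, against 1491, 1355, 1742 and 1707 CPM in PBS oil livers. Arg1 in every T3 liver lay above every PBS liver on CCl4, while the groups overlapped on oil, and its log2 interaction was 1.39 ± 0.31 SE, adjusted p = 0.00239. Cps1, the first step, averaged 3463 ± 524 CPM in T3 CCl4 livers, 1799 ± 542 CPM in PBS CCl4 livers, 3389 ± 988 CPM in T3 oil livers and 4967 ± 472 CPM in PBS oil livers (1.50 ± 0.35, adjusted p = 0.0039). Asl, the argininosuccinate lyase, rose with T3 on CCl4 and was not called on oil (1.69 ± 0.41, adjusted p = 0.00442). Cdh1, E-cadherin, was the member called lower (-2.16 ± 0.57, adjusted p = 0.00835), and T3 raised it on oil. Secreted proteins and apolipoproteins were higher in 10 of 19 and lower in 1 (median 0.88), with 7 called without T3 oil replicate 4 and 6 with library totals alone. Apoh, which binds phospholipid (1.33 ± 0.26, adjusted p = 0.00101), and Apoa2, of high-density lipoprotein (1.55 ± 0.34, adjusted p = 0.00229), were higher. Albumin itself averaged 67905 ± 14864 CPM in T3 CCl4 livers, 44174 ± 6981 CPM in PBS CCl4 livers, 70798 ± 11041 CPM in T3 oil livers and 114895 ± 18716 CPM in PBS oil livers (1.32 ± 0.32, adjusted p = 0.00484).

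Complement genes were higher in 6 of 20 and lower in 2, and 5 were called without T3 CCl4 replicate 1. Under library totals alone 4 higher and 4 lower were called, and the median was -0.15, against 0.32 as reported. Masp2, a protease that starts the lectin pathway, rose with T3 on CCl4, and its interaction was 1.38 ± 0.28, adjusted p = 0.00131. C8b, of the membrane attack complex, fell more with T3 on oil than on CCl4 (interaction 1.84 ± 0.45, adjusted p = 0.00493). C5ar1, the anaphylatoxin receptor of myeloid cells, was lower (-1.95 ± 0.46, adjusted p = 0.00416). Of 17 hepatocyte transcription factors 6 were higher and none lower, with 3 called without any 1 of 4 libraries (PBS CCl4 replicate 2, PBS oil replicate 3, T3 CCl4 replicate 1, T3 oil replicate 1). Scaling by library totals alone left 1 higher and 1 lower called (median 0.24, against 0.74). Esrrg (ENSMUSG00000026610, chromosome 1, 187608791 to 188214885), an orphan nuclear receptor of energy metabolism, had the smallest adjusted p of them. Esrrg measured 9.13, 13.6, 19 and 20.4 CPM in T3 CCl4 livers, against 0.2, 0.206, 0.0715 and 0.485 CPM in PBS CCl4 livers. On oil, Esrrg measured 29.8, 24.5, 32.2 and 23.1 CPM in T3 oil livers, against 6.19, 6.31, 7.28 and 2.2 CPM in PBS oil livers. Esrrg lay above every PBS liver in all T3 livers under both injections, and its log2 interaction was 3.69 ± 0.54 SE, adjusted p = 5.23e-05. PBS CCl4 livers held 24 counts of Esrrg in all, so the size of the CCl4 response rests on few reads. Nr5a2 (0.995 ± 0.25, adjusted p = 0.00584) and Nr1h4, the bile acid receptor (1.22 ± 0.34, adjusted p = 0.0113), fell with T3 on oil and were not called on CCl4. With library totals alone their adjusted p was 0.0838 and 0.0738.

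Mitochondrial genes rose with T3 on CCl4 more than on oil. Subunits of the respiratory chain were higher in the interaction for 14 of 22 and lower for 1 (median 0.55). T3 raised all 22 on CCl4 and 8 on oil. PBS CCl4 livers stood below the other groups in each of the 14. The count called was 8 without T3 oil replicate 4 and 3 with library totals alone (2 higher and 1 lower). Ndufa9 (ENSMUSG00000000399, chromosome 6, 126821721 to 126849136) encodes a complex I subunit. Ndufa9 measured 142, 109, 119.9 and 125 CPM in T3 CCl4 livers, against 67.1, 61.6, 70.3 and 85.7 CPM in PBS CCl4 livers. On oil, Ndufa9 measured 127, 132, 124 and 106 CPM in T3 oil livers, against 136, 133, 119 and 119 CPM in PBS oil livers. Ndufa9 in every T3 liver lay above every PBS liver on CCl4, while the groups overlapped on oil, and its log2 interaction was 0.85 ± 0.19 SE, adjusted p = 0.00289. Sdhc, of complex II, followed it (0.86 ± 0.20, adjusted p = 0.00309).

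Fatty acid oxidation and ketogenesis genes were higher in 13 of 20 and lower in none (median 0.97). T3 raised 12 and lowered 1 on CCl4, and raised 0 and lowered 5 on oil. All 20 were called without PBS CCl4 replicate 4, and 5 with library totals alone. Eci1 (ENSMUSG00000024132, chromosome 17, 24426641 to 24439348) encodes an isomerase needed for unsaturated fatty acids. Eci1 measured 102, 94.1, 100.1 and 58.8 CPM in T3 CCl4 livers, against 48.1, 39, 46 and 82 CPM in PBS CCl4 livers. On oil, Eci1 measured 66.5, 68.7, 61.5 and 63.3 CPM in T3 oil livers, against 136, 119, 96.8 and 84.5 CPM in PBS oil livers. Eci1 overlapped between T3 and PBS livers on CCl4, while on oil every T3 liver lay below every PBS liver, and its log2 interaction was 1.47 ± 0.29 SE, adjusted p = 0.00108. Acaa2, a thiolase (1.34 ± 0.28, adjusted p = 0.00175), Hadh (1.70 ± 0.40, adjusted p = 0.00406) and Acadm, the medium-chain dehydrogenase (1.22 ± 0.30, adjusted p = 0.0052), were higher. Idh2 (ENSMUSG00000030541, chromosome 7, 80094846 to 80115392), the mitochondrial isocitrate dehydrogenase, was among the 12 smallest adjusted p. Idh2 measured 152, 128, 136 and 100.4 CPM in T3 CCl4 livers, against 166, 147, 134 and 216 CPM in PBS CCl4 livers. On oil, Idh2 measured 102, 88.6, 90.1 and 85.7 CPM in T3 oil livers, against 302, 362, 269 and 281 CPM in PBS oil livers. Idh2 overlapped between T3 and PBS livers on CCl4, while on oil every T3 liver lay below every PBS liver, and its log2 interaction was 1.37 ± 0.21 SE, adjusted p = 7.32e-05. PBS oil livers were the high group of Idh2.

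Bile acid synthesis and transport genes were higher in 11 of 17 and lower in none (median 1.56), with 6 called without T3 oil replicate 4. Slc10a1 (ENSMUSG00000021135, chromosome 12, 80953183 to 80968705) encodes the sodium-dependent importer of bile acids. Slc10a1 measured 473, 580.4, 657 and 585 CPM in T3 CCl4 livers, against 79.4, 34.1, 46.2 and 228 CPM in PBS CCl4 livers. On oil, Slc10a1 measured 575, 748.6, 777 and 431 CPM in T3 oil livers, against 551, 497, 549 and 315 CPM in PBS oil livers. Slc10a1 in every T3 liver lay above every PBS liver on CCl4, while the groups overlapped on oil, and its log2 interaction was 2.16 ± 0.60 SE, adjusted p = 0.0116. Cyp7a1 (ENSMUSG00000028240, chromosome 4, 6265612 to 6275633), the rate-limiting enzyme of bile acid synthesis and a T3-responsive gene, was lowest in PBS CCl4 livers. Cyp7a1 measured 205, 216, 219 and 239 CPM in T3 CCl4 livers, against 3.09, 0.33, 0.143 and 14.5 CPM in PBS CCl4 livers. On oil, Cyp7a1 measured 344, 158, 147 and 139 CPM in T3 oil livers, against 95.7, 9.76, 59.8 and 111 CPM in PBS oil livers. Cyp7a1 lay above every PBS liver in all T3 livers under both injections, and its log2 interaction was 4.09 ± 1.26 SE, adjusted p = 0.0199. Abcc3, an exporter of the basolateral membrane, fell with T3 more on oil than on CCl4 (2.54 ± 0.41, adjusted p = 0.000131). In cholesterol synthesis T3 raised all 22 of 22 on CCl4 and 17 on oil, and 6 were called in the interaction, all higher. That count lay between 2 and 13 without single libraries: 2 without PBS CCl4 replicate 2, PBS oil replicate 1 or T3 oil replicate 4, 3 without T3 CCl4 replicate 4, and 13 without PBS CCl4 replicate 3. Tm7sf2, a sterol reductase (1.37 ± 0.37, adjusted p = 0.0101), was one of the 6. Lipogenesis genes were higher in 7 of 17, with Mlxipl, the carbohydrate-responsive factor, at 1.48 ± 0.38 and Fads1, a desaturase, at 1.42 ± 0.39. Of this list 4 were called without PBS oil replicate 1 or T3 oil replicate 4. The cholesterol synthesis and lipogenesis lists had 2 and 4 called with library totals alone, all higher.

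The largest positive interactions belonged to genes that were high in PBS oil livers and nearly lost with T3 there. Drug-metabolising cytochrome P450 genes were higher in 11 of 22 and lower in 1 (median 1.39). On CCl4 T3 raised 6 and lowered 6 of them, where 20.0% of all genes were higher and 21.7% lower. On oil it raised 4 and lowered 11, where 19.0% of all genes were higher and 16.2% lower. Members of the Cyp2b, Cyp2c and Cyp2a families are near-identical and may have exchanged reads, so single values of them are uncertain.

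Cyp2c37 (ENSMUSG00000042248, chromosome 19, 39992424 to 40012243) was lowered by T3 on oil and was not called on CCl4. Cyp2c37 measured 437, 83.9, 127 and 105 CPM in T3 CCl4 livers, against 118, 88.3, 208 and 356 CPM in PBS CCl4 livers. On oil, Cyp2c37 measured 44, 31.1, 23.7 and 19.1 CPM in T3 oil livers, against 1212, 1279.9, 902 and 442 CPM in PBS oil livers. T3 CCl4 replicate 1 was the highest of its group. Cyp2c37 overlapped between T3 and PBS livers on CCl4, while on oil every T3 liver lay below every PBS liver, and its log2 interaction was 4.99 ± 0.68 SE, adjusted p = 2.48e-05. Cyp2c50 had the same high T3 CCl4 replicate 1 and an interaction of 5.91 ± 0.92, adjusted p = 0.000107, and Cyp2c67 was at 3.22 ± 0.47, adjusted p = 5.74e-05. Cyp2b13 (5.97 ± 1.10, adjusted p = 0.000559) fell with T3 under both injections. Cyp2d22 averaged 167 ± 10.8 CPM in T3 CCl4 livers, 170 ± 41.5 CPM in PBS CCl4 livers, 124 ± 28.9 CPM in T3 oil livers and 404 ± 74.5 CPM in PBS oil livers (1.68 ± 0.26, adjusted p = 9.87e-05). Cyp2a4, a steroid hydroxylase with the near-identical copy Cyp2a5, was the member called lower (-2.002 ± 0.57, adjusted p = 0.0128). Of the largest values, Sult3a1, a sulfotransferase, stood at 10.41 ± 2.28 with 47, 10, 5 and 1164 counts over the T3 CCl4, PBS CCl4, T3 oil and PBS oil livers. It rests on so few reads that its size is not fixed. It was not called without T3 CCl4 replicate 1 (edgeR adjusted p = 0.0611) or by limma voom (adjusted p = 0.228). Mup21, a urinary protein of a family of near copies, stood at 5.76 ± 1.11 with 2 counts in T3 oil livers.

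Pericentral hepatocyte genes, which mark the cells that activate CCl4, were higher in 5 of 15 and lower in none (median 1.28). The count was 2 without PBS oil replicate 1, 9 without PBS CCl4 replicate 4, and 3 without any 1 of 7 others: PBS CCl4 replicate 2 or 3, PBS oil replicate 2, T3 CCl4 replicate 1 or 4, or T3 oil replicate 3 or 4. It was 3 with library totals alone. Cyp2e1 (ENSMUSG00000025479, chromosome 7, 140763739 to 140774987), the main enzyme that turns CCl4 into its radical, was high in PBS oil livers. Cyp2e1 measured 1234, 853, 1103 and 978 CPM in T3 CCl4 livers, against 807, 1109, 478 and 1852 CPM in PBS CCl4 livers. On oil, Cyp2e1 measured 1171, 1293, 933 and 889 CPM in T3 oil livers, against 7160.2, 11369.5, 8228 and 3795 CPM in PBS oil livers. Cyp2e1 overlapped between T3 and PBS livers on CCl4, while on oil every T3 liver lay below every PBS liver, and its log2 interaction was 2.81 ± 0.60 SE, adjusted p = 0.00204. T3 CCl4, PBS CCl4 and T3 oil livers had like group means of Cyp2e1, at 1042, 1062 and 1071 CPM.

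Outside the lists, Adam11 (ENSMUSG00000020926, chromosome 11, 102761439 to 102780262), a catalytically inactive member of the disintegrin family, had the smallest adjusted p of a higher interaction. Adam11 measured 2.66, 2.15, 3.02 and 1.8 CPM in T3 CCl4 livers, against 9.46, 6.64, 7.22 and 17.1 CPM in PBS CCl4 livers. On oil, Adam11 measured 0.849, 0.654, 1.43 and 0.659 CPM in T3 oil livers, against 69.2, 61.4, 50.7 and 36.8 CPM in PBS oil livers. Adam11 lay below every PBS liver in all T3 livers under both injections, and its log2 interaction was 3.86 ± 0.43 SE, adjusted p = 2.35e-06. Adssl1 (ENSMUSG00000011148, chromosome 12, 112620045 to 112641360), of the purine nucleotide cycle, was low in all groups but PBS oil. Adssl1 measured 12.7, 9.89, 11.7 and 10.8 CPM in T3 CCl4 livers, against 10.2, 12.6, 11.6 and 18.8 CPM in PBS CCl4 livers. On oil, Adssl1 measured 9.77, 8.5, 10.1 and 5.88 CPM in T3 oil livers, against 42.2, 45.7, 32.2 and 35.1 CPM in PBS oil livers. Adssl1 overlapped between T3 and PBS livers on CCl4, while on oil every T3 liver lay below every PBS liver, and its log2 interaction was 1.95 ± 0.25 SE, adjusted p = 1.1e-05. Tm6sf2 (ENSMUSG00000036151, chromosome 8, 70072924 to 70080066), needed to load lipid onto very-low-density lipoprotein, rose with T3 under both injections and more on CCl4. Tm6sf2 measured 94.4, 106, 100.2 and 119 CPM in T3 CCl4 livers, against 18.9, 12.9, 22.8 and 25.5 CPM in PBS CCl4 livers. On oil, Tm6sf2 measured 97.5, 113, 102 and 89.3 CPM in T3 oil livers, against 60.2, 60.2, 49 and 50 CPM in PBS oil livers. Tm6sf2 lay above every PBS liver in all T3 livers under both injections, and its log2 interaction was 1.51 ± 0.23 SE, adjusted p = 7.32e-05. Mtfp1, of mitochondrial fission, rose with T3 on CCl4 (0.87 ± 0.13) and fell with it on oil (-0.37 ± 0.13), with an interaction of 1.24 ± 0.19, adjusted p = 8.28e-05. Ociad2 stood at 3.40 ± 0.53, adjusted p = 9.87e-05.

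Of the 6 genes with the smallest adjusted p among those that T3 moved in opposite directions, 4 were interferon-stimulated (Rsad2, Isg15, Ifi44 and Irf7). The other 2 were Slc6a9, the glycine transporter, and Ifngr1, a chain of the interferon-gamma receptor. Slc6a9 (ENSMUSG00000028542, chromosome 4, 117834506 to 117875198) separated on both sides. Slc6a9 measured 47.2, 48.9, 36.7 and 42.6 CPM in T3 CCl4 livers, against 99.9, 77.3, 73.5 and 67.3 CPM in PBS CCl4 livers. On oil, Slc6a9 measured 46.1, 63.3, 64.7 and 56.6 CPM in T3 oil livers, against 17.7, 31.7, 17.3 and 18.7 CPM in PBS oil livers. Slc6a9 in T3 livers lay below every PBS liver on CCl4 and above every one on oil, and its log2 interaction was -2.29 ± 0.29 SE, adjusted p = 8.6e-06. Slfn4, of myeloid cells, was among the 4 largest negative values (-5.86 ± 0.84, adjusted p = 4.77e-05), with 2.25 ± 0.59 CPM in T3 CCl4 livers, 23.2 ± 16.3 CPM in PBS CCl4 livers, 3.52 ± 2.27 CPM in T3 oil livers and 0.636 ± 0.329 CPM in PBS oil livers.

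Both receptor genes of the hormone were higher in the interaction, a call that depended on the scaling. Thrb (ENSMUSG00000021779, chromosome 14, 17660261 to 18038090) encodes the beta receptor. Thrb measured 43.8, 40.9, 44.4 and 32.8 CPM in T3 CCl4 livers, against 23.8, 10.7, 33.1 and 26.3 CPM in PBS CCl4 livers. On oil, Thrb measured 44, 44.3, 60.6 and 43.2 CPM in T3 oil livers, against 56.9, 62.7, 66.4 and 50.2 CPM in PBS oil livers. Thrb in T3 and PBS livers overlapped under both injections, and its log2 interaction was 1.08 ± 0.30 SE, adjusted p = 0.0101. Thra (ENSMUSG00000058756, chromosome 11, 98740638 to 98769006) encodes the alpha receptor. Thra measured 9.5, 15, 13 and 13.3 CPM in T3 CCl4 livers, against 10.5, 6.18, 9.72 and 13.3 CPM in PBS CCl4 livers. On oil, Thra measured 14.5, 13.5, 17.2 and 11.7 CPM in T3 oil livers, against 28.9, 22, 19.7 and 25.5 CPM in PBS oil livers. Thra overlapped between T3 and PBS livers on CCl4, while on oil every T3 liver lay below every PBS liver, and its log2 interaction was 1.11 ± 0.30 SE, adjusted p = 0.0088. Rxra, a partner of both, rose with T3 on CCl4 and was not called on oil (1.10 ± 0.28, adjusted p = 0.00715). None of the 3 was called with library totals alone (adjusted p = 0.101 for Thrb, 0.0887 for Thra and 0.0528 for Rxra). Of 14 receptors and coregulators 4 were higher and 2 lower (median 0.15). The balance turned over with library totals alone, to 0 higher and 4 lower (median -0.34).

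Known T3-responsive genes were called in the interaction at a share near that of all genes. Of 15, 1 was higher and 3 lower (median 0.16), while T3 raised 12 on CCl4 and 9 on oil and lowered none. Under library totals alone 1 higher and 5 lower were called and the median was -0.30. Cyp7a1 was the higher one. The lower ones rose with T3 under both injections, and less on CCl4. Gpd2 (ENSMUSG00000026827, chromosome 2, 57237635 to 57370719), of the glycerol phosphate shuttle, was one. Gpd2 measured 134, 122, 125 and 110.4 CPM in T3 CCl4 livers, against 15.3, 22.7, 13 and 15.1 CPM in PBS CCl4 livers. On oil, Gpd2 measured 168, 117, 146 and 161 CPM in T3 oil livers, against 7.65, 8.94, 12.3 and 10.2 CPM in PBS oil livers. Gpd2 lay above every PBS liver in all T3 livers under both injections, and its log2 interaction was -1.02 ± 0.27 SE, adjusted p = 0.00864. Bcl3, a co-factor of NF-kappa-B, stood at -1.54 ± 0.41, adjusted p = 0.00913, and Hr, a co-repressor induced by T3, at -2.62 ± 0.75, adjusted p = 0.0129. The direct repeat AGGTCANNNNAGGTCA, to which receptor pairs are known to bind, was in 0 of 15 windows of this list and in 5 of all 32851.

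The same interaction was then taken in the knockouts, and knockout minus wild type was tested over all 32 libraries. Knockout livers kept reads of Thrb, at 20.1 ± 3.46 CPM in T3 CCl4 livers, 20 ± 3.18 CPM in PBS CCl4 livers, 29.5 ± 4.95 CPM in T3 oil livers and 35.9 ± 4.94 CPM in PBS oil livers. A gene-level count cannot tell a transcript that lacks an exon from an intact one. In knockouts 578 genes were called for the interaction (3.71%), 179 higher (1.15%) and 399 lower (2.56%). Of the tested genes, 1229 were called for the difference between genotypes (7.88%), 544 higher in knockouts (3.49%) and 685 lower (4.39%). The number differed with the libraries used. It was 502 and 573 without knockout PBS CCl4 replicates 4 and 2, 640 without knockout T3 CCl4 replicate 3 and 665 without wild-type T3 oil replicate 4. It was 787 to 812 without knockout PBS oil replicate 3, wild-type PBS oil replicate 1 or 2, or wild-type T3 CCl4 replicate 3 or 4. It was 2782 without knockout PBS CCl4 replicate 3 and 2936 without wild-type PBS CCl4 replicate 4.

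The mitosis genes had the interaction in both genotypes. In knockouts 18 of 18 were called, with a median of -4.63, against -3.89 in wild type, and the genotype difference was called for none of them by edgeR, DESeq2 or limma voom, with 1 at an unadjusted p below 0.05. Cdk1 stood at -4.21 ± 0.59 in knockouts and -4.25 ± 0.58 in wild type, and the difference was 0.04 ± 0.90 SE, adjusted p = 0.987. Of the interferon-stimulated genes 15 of 18 were called in knockouts, with a median of -1.96, against -3.08 in wild type, and the difference was called higher in knockouts for 4. That number was 2 without any 1 of 7 libraries (knockout PBS CCl4 replicate 2 or 4, wild-type PBS CCl4 replicate 1 or 3, PBS oil replicate 2, T3 CCl4 replicate 3 or T3 oil replicate 4), 8 without knockout PBS CCl4 replicate 1 and 10 without wild-type PBS CCl4 replicate 4. It was 8 with library totals alone and by DESeq2, and 11 by limma voom. Rsad2 was one of the 4, at -2.18 ± 0.42 in knockouts and -4.41 ± 0.43 in wild type (difference 2.23 ± 0.59 SE, adjusted p = 0.0245).

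Acute-phase genes, mixed in wild type, were mostly higher in knockouts. There 14 of 20 were called, all higher, with a median of 1.69, against -0.38 in wild type, and the difference was called higher for 11. Lcn2 (ENSMUSG00000026822, chromosome 2, 32384633 to 32388252) encodes a secreted protein that traps bacterial iron carriers. In knockouts, Lcn2 measured 1529, 1985, 949 and 3964 CPM in T3 CCl4 livers, against 42.8, 109, 77.8 and 59.1 CPM in PBS CCl4 livers. Knockout Lcn2 on oil measured 9.19, 9.41, 14.9 and 30 CPM in T3 oil livers, against 17, 5.3, 3.12 and 7.86 CPM in PBS oil livers. In wild type, Lcn2 measured 170.2, 496, 188 and 115 CPM in T3 CCl4 livers, against 330.4, 1587, 896 and 188 CPM in PBS CCl4 livers. Wild-type Lcn2 on oil measured 33.2, 18.5, 17.8 and 13.3 CPM in T3 oil livers, against 12.5, 7.9, 13.7 and 3.29 CPM in PBS oil livers. The interaction of Lcn2 was 3.94 ± 0.87 SE, adjusted p = 0.00844 in knockouts and -2.78 ± 0.85 SE, adjusted p = 0.0193 in wild type, and the difference was 6.71 ± 1.21 SE, adjusted p = 0.00428. The wild-type value was not called without PBS CCl4 replicate 2 (edgeR adjusted p = 0.0733) or by limma voom (adjusted p = 0.0559). Saa1, another acute-phase gene, lost its wild-type call by limma voom (adjusted p = 0.134) and without the 3 farthest libraries (edgeR adjusted p = 0.0969). Saa1 also lost it without PBS CCl4 replicate 2 (edgeR adjusted p = 0.0951) and without several other single libraries. Fos also differed, at 0.38 ± 0.59 in knockouts and -2.98 ± 0.58 in wild type (difference 3.37 ± 0.82 SE, adjusted p = 0.0195).

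Of the hepatocyte lists with positive medians in wild type, some had medians below 0 in knockouts and others stayed above 0. The knockout medians of coagulation factors, hepatocyte transcription factors, cholesterol synthesis and complement were 0.29, 0.09, 0.41 and 0.12, against 1.13, 0.74, 1.00 and 0.32 in wild type. The knockout medians of the cytochrome P450, respiratory chain and fatty acid oxidation lists were -0.62, -0.23 and -0.34, against 1.39, 0.55 and 0.97 in wild type. The difference was called lower in knockouts for 9 of 22, 9 of 22 and 7 of 20 of their genes, where 4.39% of all genes were. The P450 count stayed within 1.5 times of 9 as each library was left out. The respiratory chain count was 4 and 5 without knockout PBS CCl4 replicates 4 and 2, and 18 and 15 without knockout PBS CCl4 replicate 3 and wild-type PBS CCl4 replicate 4. It was 1 with no filter on low counts and 4 with library totals alone, and 15 by DESeq2 and 20 by limma voom. The fatty acid oxidation count was 4 without knockout PBS CCl4 replicate 4, 11 without T3 CCl4 replicate 1 of the knockouts or 4 of the wild type, and 16 and 19 without knockout PBS CCl4 replicate 3 and wild-type PBS CCl4 replicate 4. By DESeq2 and limma voom it was 12 and 20.

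Of single genes, P3h1, Zfp687, Golga5 and Ifngr1 had the smallest adjusted p of a difference higher in knockouts. P3h1 (ENSMUSG00000028641, chromosome 4, 119232915 to 119248975) encodes a prolyl hydroxylase that modifies collagen. In knockouts, P3h1 measured 51, 68.5, 63.4 and 83.1 CPM in T3 CCl4 livers, against 39.8, 40.2, 48.8 and 40 CPM in PBS CCl4 livers. Knockout P3h1 on oil measured 19, 18, 19.5 and 23.8 CPM in T3 oil livers, against 17.7, 23.1, 17.8 and 17.9 CPM in PBS oil livers. In wild type, P3h1 measured 53.2, 52.5, 47.7 and 47.9 CPM in T3 CCl4 livers, against 56.9, 57.3, 43.6 and 43.5 CPM in PBS CCl4 livers. Wild-type P3h1 on oil measured 42.6, 42.5, 43.9 and 37.7 CPM in T3 oil livers, against 14, 13.6, 17 and 21 CPM in PBS oil livers. Its interaction was 0.58 ± 0.20 in knockouts and -1.35 ± 0.20 in wild type (difference 1.93 ± 0.29 SE, adjusted p = 0.000823). Zfp687, a zinc finger protein, differed by 1.44 ± 0.21 SE, adjusted p = 0.000823, Golga5, a golgin of the Golgi membrane, by 1.24 ± 0.19 SE, adjusted p = 0.0011, and Ifngr1 by 1.86 ± 0.30 SE, adjusted p = 0.00144. In the other direction stood Cyp2c69 (-7.92 ± 1.15 SE, adjusted p = 0.000823), Hcfc1r1 (-2.06 ± 0.30 SE, adjusted p = 0.000823) and Idh2 (-1.87 ± 0.29 SE, adjusted p = 0.0011).

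**Figure D5:**
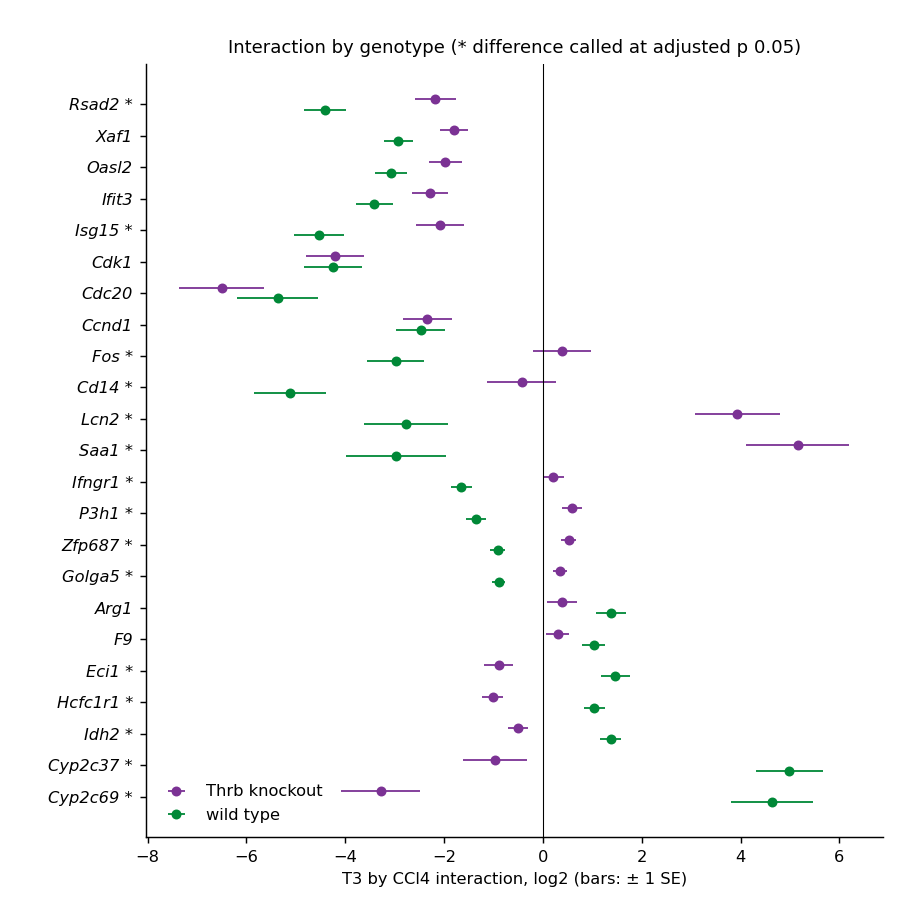
Interaction of T3 and CCl4 (log2, horizontal axis) for named genes in Thrb knockout and wild-type liver; bars are 1 standard error and asterisks mark genes whose difference between genotypes was called. Cdk1, Cdc20 and Ccnd1 lie together in both genotypes, while Lcn2 and Saa1 lie to the right of 0 in knockouts and to the left in wild type.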

How the data were processed

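Polyadenylated RNA of mouse liver was sequenced with TruSeq kits, per the labels' protocols, with 1 library per mouse. The authors deposited whole-number read counts per Ensembl gene, with no normalisation, and the 32 libraries hold 16985162 to 26118055 counts each. The submitters' processing notes name FastQC 0.11.5, Trim Galore, cutadapt, STAR 2.7.9a and GRCm38. How the reads were counted (tool, annotation, strand) is not given in the sources used here, so overlapping antisense genes cannot be told apart, and near-identical genes may exchange reads. Of 52636 gene IDs, 52403 matched GENCODE vM21, and the 233 others held at most 0.0656% of the counts of a library.

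Counts were fitted with edgeR 4.0.16 in R 4.3.3: TMM factors, its filter by group (at least 10 counts, 15 in total), and the quasi-likelihood test on all 32 libraries as 8 group means. Benjamini-Hochberg adjustment ran over all 15599 tested genes, and a call is an adjusted p below 0.05. CPM uses the TMM library sizes. The error of a log2 value is an approximate standard error (SE): its absolute value divided by the square root of the test's F statistic. Named genes had a mean of at least 5 CPM in a wild-type group and were the 12 with the smallest adjusted p and the 4 largest values per direction, the 6 with the smallest p among opposite T3 effects, the 4 with the smallest p per direction of the genotype difference, and up to 4 called members per list plus up to 2 against its majority. Thrb, Thra and Dio1 were added as checks, and some genes that meet the rule are not reported here. The members and the 42 lists were chosen with earlier results of these data known. Alternatives covered scaling, filters, DESeq2 1.42.0, limma voom 3.58.1, wild-type libraries alone, a replicate block, and leaving out libraries. The scripts were tested on simulated data. Promoter windows are from RefSeq on GRCm38.p6.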

Additional observations from a re-analysis of the deposited data

Results flagged for a closer look

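Dixon's gap test was run within each wild-type group of 4 mice for 40 genes, and 12 of 160 groups held a mouse beyond its 95% critical value. Chance gives about 1 in 20. They fell in T3 CCl4 (2), PBS CCl4 (3), T3 oil (4) and PBS oil livers (3). T3 CCl4 replicate 1 was high for Cyp2c37 (437 CPM, others 83.9 to 127) and for Cyp2c50 (178 CPM, others 11.4 to 23.6). PBS CCl4 replicate 4 was low for Oasl2 (9.98 CPM, others 24.2 to 25.4) and high for Cyp2c69 (11.03 CPM, others 2.08 to 2.76) and Hcfc1r1 (31.3 CPM, others 20.1 to 20.5). T3 oil replicate 4 was high for Oasl2 (48.3 CPM, others 27.7 to 29.2) and Slfn4 (6.89 CPM, others 2.08 to 2.77) and low for Ciapin1 (65.6 CPM, others 77.2 to 79.1). T3 oil replicate 3 was high for Thrb (60.6 CPM, others 43.2 to 44.3). In PBS oil livers, replicate 1 was high for Sult3a1 (52.1 CPM, others 0.575 to 7.28), replicate 2 for Slc6a9 (31.7 CPM, others 17.3 to 18.7), and replicate 3 was low for Ifi44 (1.77 CPM, others 2.46 to 2.58).

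The T3 effect differed between CCl4 and oil for 3722 genes, and the interaction differed between genotypes for 1229, each by edgeR's test of the difference itself. As knockout minus wild type, the named genes were Cyp2c69 (log2 -7.92), Hcfc1r1 (-2.06), Idh2 (-1.87), P3h1 (1.93), Ifngr1 (1.86), Zfp687 (1.44) and Golga5 (1.24).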

How the results depend on the processing

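The count of 3722 interaction genes was 2831 to 5222 under other size factors, filters and tools, and 2936 with the 16 wild-type libraries alone. With library totals alone it was 6004, of which 10.3% were higher, against 45.2% as reported. That scaling moved the median of all genes by construction. Leaving out 1 wild-type library at a time gave 2651 to 5079. Without the 3 farthest libraries, a choice made after seeing the data, it was 4141. T3 on CCl4 (6506 genes) ranged from 5304 to 7213 and T3 on oil (5501) from 4688 to 6088 as 1 library was left out. With library totals alone these were 8229 (20.3% higher, against 47.9%) and 5110 (67.1% higher, against 54%). The genotype difference, called for 1229 genes or 7.88% of those tested, was less stable. It was called for 2.25% of 30352 genes with no filter on low counts (364 higher and 319 lower in knockouts), for 13.1% (2039 genes) by DESeq2's Wald test and for 29.9% (4671 genes) by limma voom. It was called for 3.17% to 18.6% (502 to 2936 genes) with 1 library left out and for 22.1% (3537 genes) without the 3 farthest, and the cause was not tested. With library totals alone 1624 were called, 75.9% of them higher in knockouts, against 44.3%.

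No named gene changed the sign of its interaction under these alternatives. The medians of 6 gene lists did with library totals alone: T3-responsive genes, thyroid hormone receptors and coregulators, complement, metallothioneins, quiescent stellate cells and sinusoidal endothelium. Under other alternatives the medians of NRF2 genes, unfolded protein response chaperones, myofibroblasts, lymphocytes and blood and neighbouring tissue changed sign in at least 1. Among the values of named genes, 3983 kept their side of the threshold, 265 lost the call and 1 gained it. Of 170 genes, 24 lost it with library totals alone and 20 with the wild-type libraries alone. Counts over gene lists moved by more than 1.5 times in 199 of their values, and 851 did not.

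Replicate numbers did not pair the mice: over 24 pairs of same-numbered libraries the correlation of deviations ran from -0.218 to 0.105. Of 16 libraries, 2 correlated best with their own number. With a replicate block the interaction was called for 3672 genes, T3 on CCl4 for 6453, T3 on oil for 5448 and the genotype difference for 1217. Folds of genes with few counts in a group are poorly fixed at this depth.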

Other observations

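Genes known to be higher in female than in male mouse liver were looked at as a list of 14, chosen after their values were seen, so their counts only describe these libraries. T3 raised 7 and lowered 3 of them on CCl4, raised 6 and lowered 6 on oil, and 7 were higher and 1 lower in the interaction. Some were induced by T3 under both injections. Cux2, a transcription factor, averaged 145 ± 38.7 CPM in T3 CCl4 livers, 2.53 ± 1.29 CPM in PBS CCl4 livers, 204 ± 39.9 CPM in T3 oil livers and 12 ± 5.9 CPM in PBS oil livers (SD, n = 4 mice each). Its log2 interaction of 1.73 ± 0.70 SE was not called by edgeR (adjusted p = 0.0695). Cyp3a44 averaged 904 ± 297 CPM in T3 CCl4 livers, 1.05 ± 0.57 CPM in PBS CCl4 livers, 1069 ± 213 CPM in T3 oil livers and 0.474 ± 0.231 CPM in PBS oil livers, and its interaction was not called (-1.38 ± 0.72 SE, adjusted p = 0.162). Others were lost with T3. Cyp2b9 averaged 9.95 ± 13.8 CPM in T3 CCl4 livers, 147 ± 78.1 CPM in PBS CCl4 livers, 1.24 ± 1.54 CPM in T3 oil livers and 591 ± 121 CPM in PBS oil livers, with an interaction of 5.03 ± 1.09 SE (adjusted p = 0.00208). A1bg was the member lower in the interaction (-4.54 ± 1.26 SE, adjusted p = 0.0115), with 112 ± 88.2 CPM in T3 CCl4 livers, 9.54 ± 6.86 CPM in PBS CCl4 livers, 241 ± 175 CPM in T3 oil livers and 0.88 ± 0.778 CPM in PBS oil livers. Genes of the Cyp2b and Cyp3a families may exchange reads.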
